A study of Mus musculus with 28 samples.

Results

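The 10 genes described here encode C-type lectin receptors of macrophages at the borders of the brain: Mrc1, Mgl2, Clec10a, Clec4n, Clec4a2, Cd209a, Cd209b, Cd209d, Cd209f and Cd209g. They were taken by symbol from a table of 14617 genes, and all 10 had a row and entered the tests. C-type lectins bind sugars on microbes, on cell debris and on the body's own glycoproteins through a calcium-dependent domain. Some of them mainly carry their cargo into the cell, whereas others signal through the kinase Syk and the adaptor Card9 or through inhibitory motifs. Macrophages of the meninges and of the perivascular spaces are known for high Mrc1 (CD206), which microglia of the parenchyma carry at low levels, and several of the other genes are known targets of interleukin-4 in macrophages.

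RNA was measured by MARS-seq, which tags the 3′ ends of polyadenylated transcripts with unique molecular identifiers (UMIs), in 28 libraries of mouse brain macrophages in 8 groups. Lethally irradiated Cx3cr1 gfp/+ hosts, whose microglia and border macrophages carry GFP, received marrow with an hDNMT3A fl/fl allele. Mutant marrow also carried Vav-Cre, which recombines in all blood-forming lineages and not in macrophages alone, and control marrow had the same allele without Cre. At 16 weeks, GFP-negative (called donor here) and GFP-positive (host) cells were sorted from the leptomeninges and from the parenchyma, where the labels call them microglia. Each genotype had 4 libraries of donor leptomeningeal cells, 2 of host leptomeningeal cells, 4 of donor microglia and 4 of host microglia. Absence of GFP is no positive mark of donor origin, and host cells were never mutant, since the hDNMT3A allele came with the marrow. Host cells also carried the Cx3cr1 gfp allele and stemmed from the irradiated animal. Origin cannot be told apart from the gfp allele or from irradiation in any donor minus host comparison. Nothing in the labels ties the libraries to individual animals, and each p-value therefore reflects library-to-library spread, which may be technical.

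Totals ran between 479077 and 3066506 UMIs per library, and levels are given as CPM, a gene's UMIs relative to its library's total. A count of 0 still allows a level of 3 UMIs, which was 0.978 CPM at the highest total and 6.26 CPM at the lowest, for counting error only. Dnmt3a, the mouse copy of the targeted gene, had 15.9 to 128 CPM over all libraries, and the counts do not report on the human allele. The labelled cell types were checked against marker lists. P2ry12, a defining microglial gene, had 39.4 to 165 CPM in donor leptomeningeal cells, 548 to 1186 CPM in host leptomeningeal cells, 230.5 to 444 CPM in donor microglia and 1907.5 to 4360.1 CPM in host microglia. The 18 neutrophil genes took 3.69% to 9.93% of UMIs in donor leptomeningeal cells, against 0.203% to 0.604% in host leptomeningeal cells, 0.111% to 1.10% in donor microglia and 0.0593% to 0.154% in host microglia, so the donor leptomeningeal libraries were not macrophages alone.

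Together the 10 lectin genes took 0.175% to 0.236% of UMIs in donor leptomeningeal cells, 0.334% to 0.457% in host leptomeningeal cells, 0.0381% to 0.0442% in donor microglia and 0.00509% to 0.00907% in host microglia. The 4 ranges did not overlap. The make-up of this sum differed as well: Mgl2 led in donor leptomeningeal cells with 33.8% to 40.1% of the lectin UMIs, Mrc1 led in host leptomeningeal cells with 30.5% to 36.3% and in donor microglia with 45.2% to 63.8%, and Clec4a2 had the highest mean share in host microglia, with 18.3% to 46.5%. Cd209f and Cd209g together made 3.97% to 7.26% in donor leptomeningeal cells, against 24.7% to 33.0% in host leptomeningeal cells, where Cd209f had 16.4% to 24.7% and Cd209g 8.29% to 8.60%, and they made 0% to 4.49% in donor and 0% to 4.10% in host microglia. Counts of 3′ ends do not scale with transcript length, and levels were set side by side between genes within a library on that ground. Other differences between genes in how they are counted were not measured. Reads shared by similar genes leave Mgl2, Clec10a, Cd209f and Cd209g uncertain, as given below. In bulk libraries, fewer cells that express a gene and less RNA per cell cannot be told apart.

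**Figure D1:**
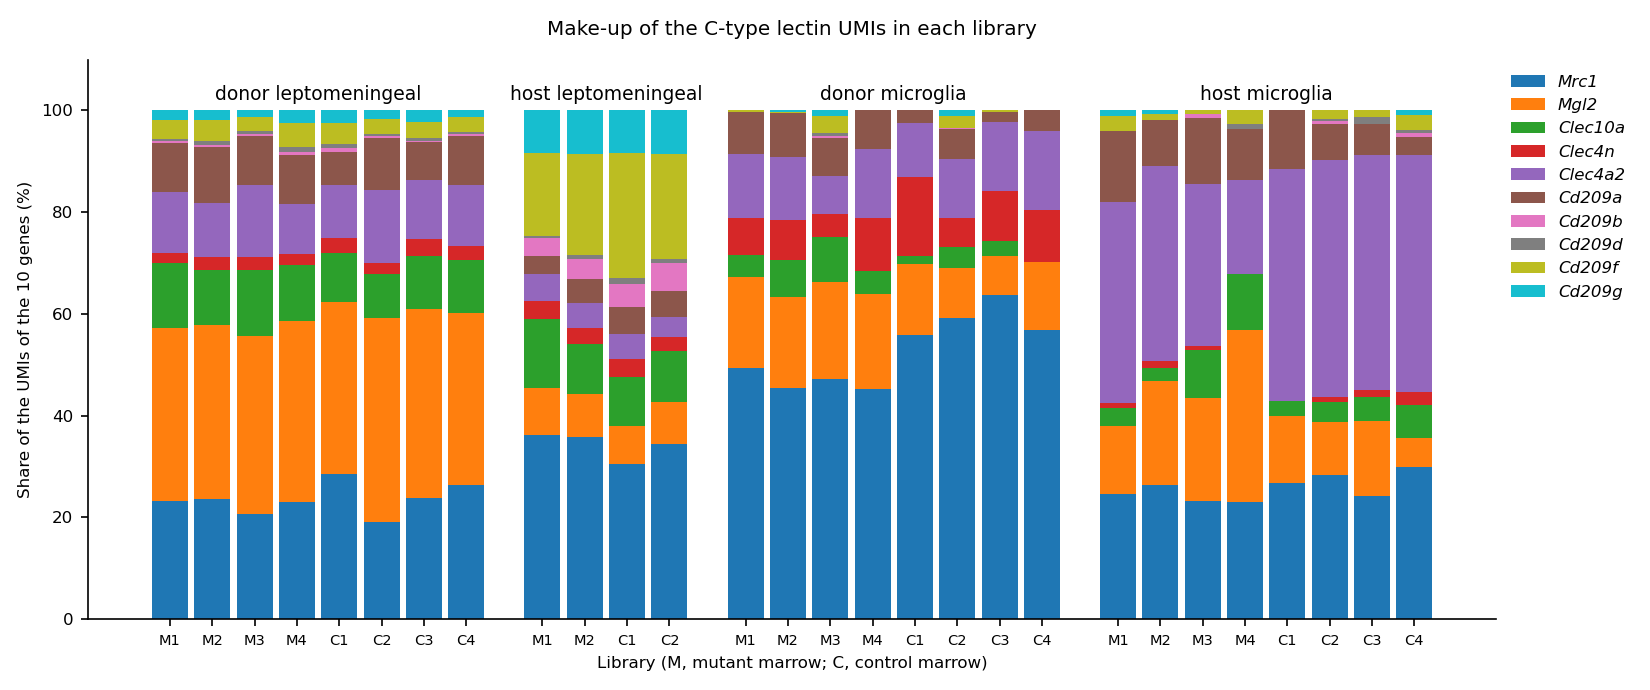
Each bar is 1 library and its colours give the share of the UMIs of the 10 genes that each gene took (vertical axis, percent), by cell population, with mutant-marrow libraries (M) left of control-marrow libraries (C). Mgl2 fills 33.8% to 40.1% of the bars in donor leptomeningeal cells, and Cd209f and Cd209g together fill 24.7% to 33.0% in host leptomeningeal cells and at most 7.26% in any other bar.

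**Figure D2:**
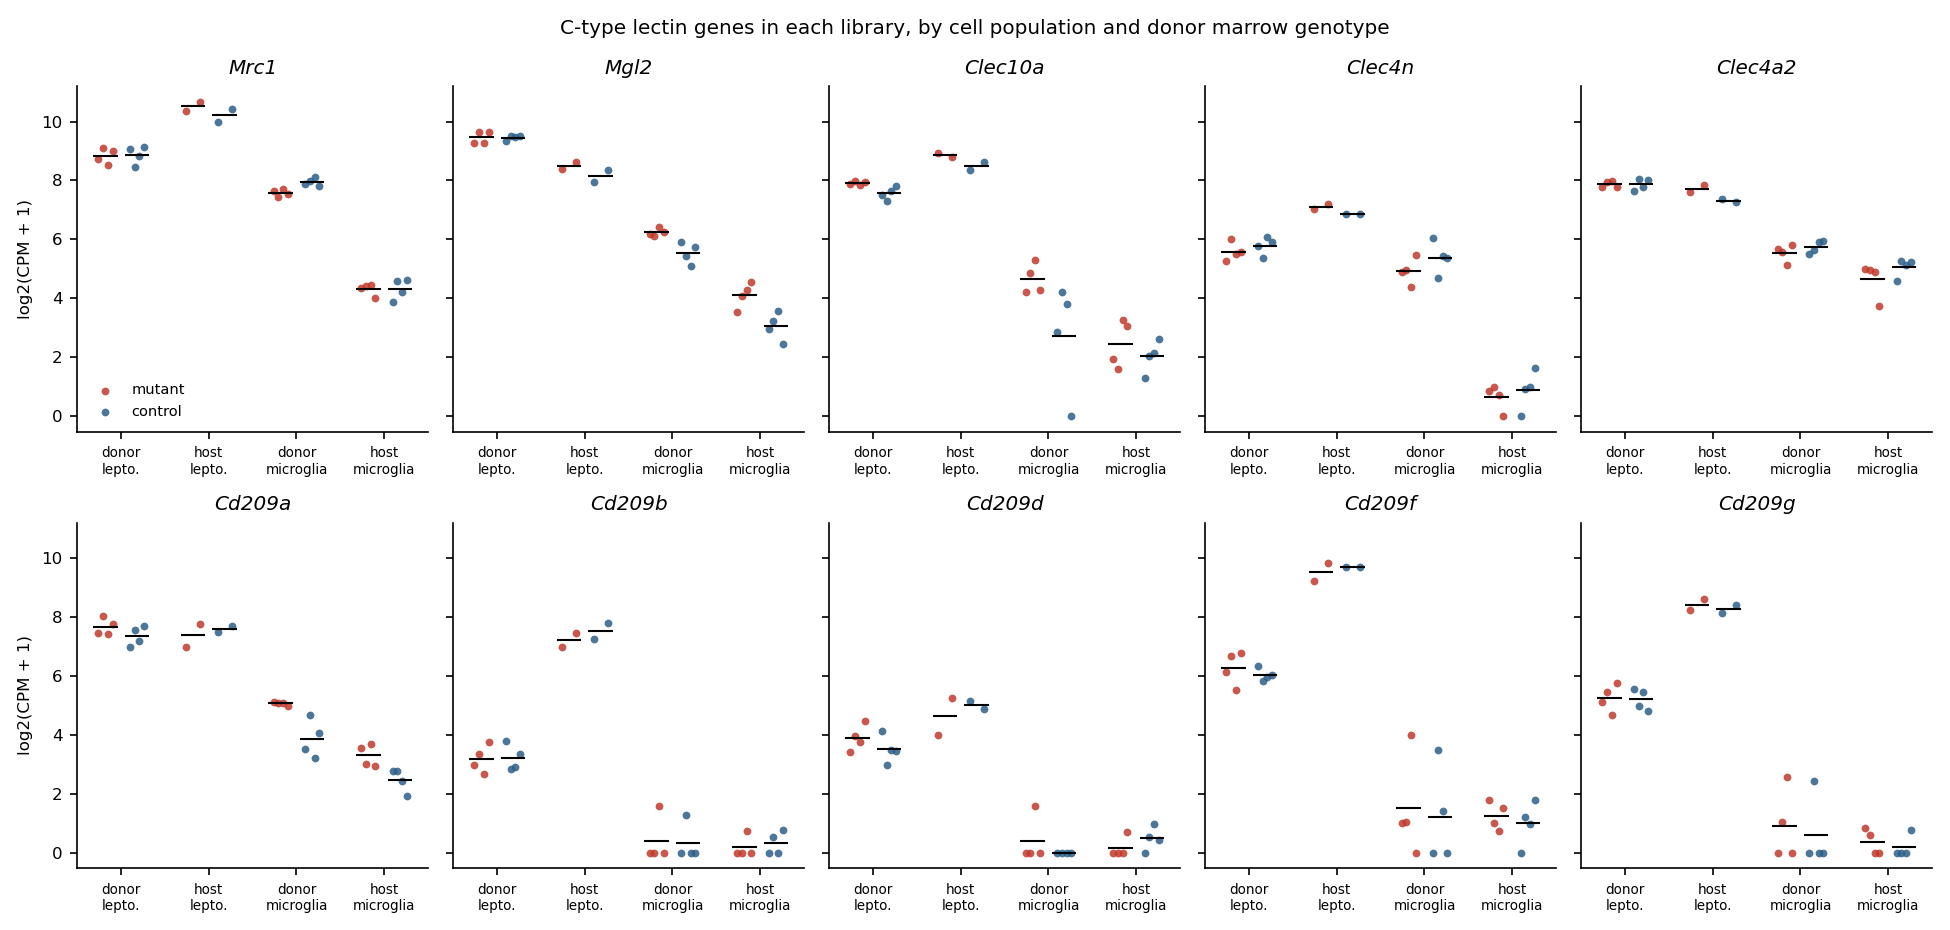
Each panel is 1 gene, each point 1 library and each line the mean of the log2(CPM + 1) values of its group. Red is mutant marrow and blue is control marrow. The 4 genes Cd209b, Cd209d, Cd209f and Cd209g lie near 0 in most microglia libraries, whereas Mrc1 lies between 173 and 277 CPM in donor microglia and between 13.6 and 23.4 CPM in host microglia.

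Which compartment and which origin carry these receptors was tested with edgeR's quasi-likelihood test, averaged over genotypes, with p-values adjusted over all 12327 genes tested. Leptomeningeal cells exceeded microglia for 10 of 10 genes in donor cells, where 30.5% of all genes were higher and 31.6% lower (62.1% in either direction), and for 10 of 10 in host cells, where 31.1% were higher and 25.7% lower (56.7% in either direction). Donor leptomeningeal cells exceeded host microglia for 10 of 10 genes (background 39.5% higher and 32.8% lower, 72.2% in all), and donor microglia were below host leptomeningeal cells for 10 of 10 (background 24.2% higher and 21.6% lower, 45.8% in all). Only 6 of the 10 genes had at least 10 UMIs in 4 or more microglia libraries. Cd209b, Cd209d and Cd209g had at most 5 UMIs in any microglia library and entered the test through leptomeningeal libraries. A difference was thus built into the selection of Cd209b, Cd209d and Cd209g. All 10 genes were also picked as border macrophage genes, with earlier results of these data known. These counts are therefore a description and not a test. Within the leptomeninges, 2 genes were higher and 7 lower in donor than in host cells (background 16.9% higher and 13.3% lower, 30.2% in all). Within microglia, 6 were higher and 0 lower in donor than in host cells (background 33.1% higher and 27.3% lower, 60.4% in all), while 7 had an unadjusted p under 0.05 (63.9% of all genes) and DESeq2's Wald test called 8 (58.7% of all genes). Counted in either direction, 6 in 10 is near the 60.4% of all genes in that comparison. Counted as higher only, it stands against 33.1%.

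**Figure D3:**
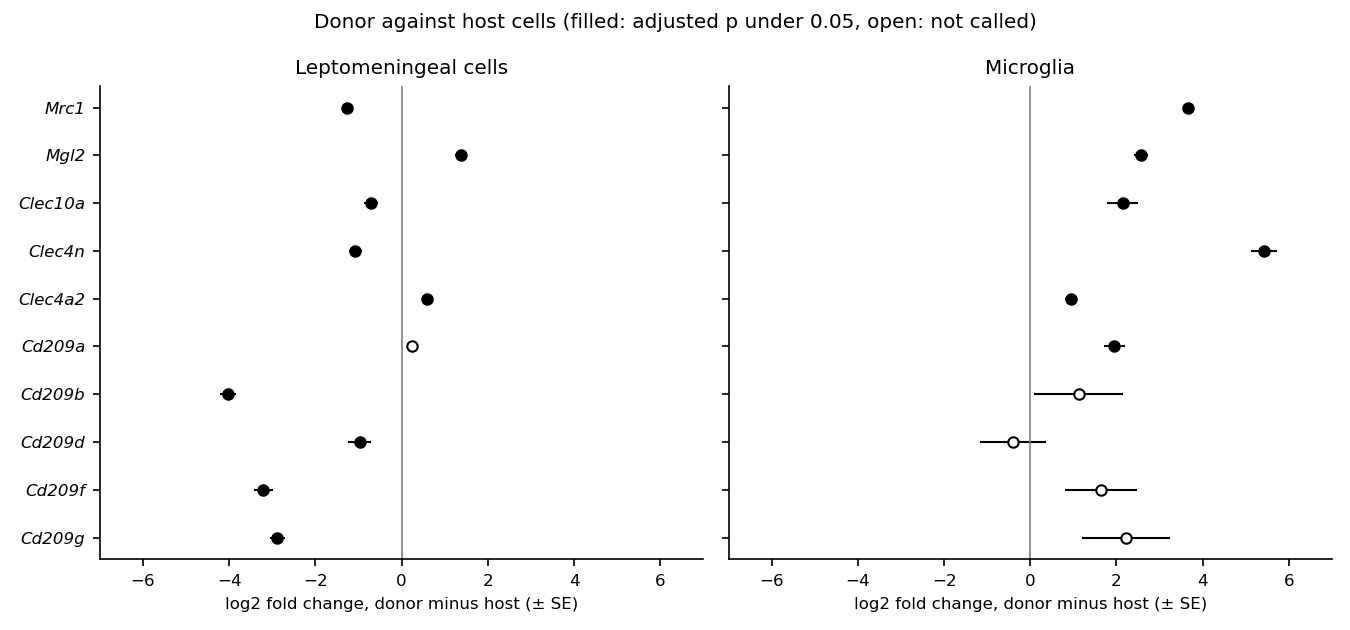
Points are log2 fold changes of donor minus host cells and bars their standard errors (SE), for leptomeningeal cells at left and microglia at right. Filled points had an adjusted p under 0.05. In leptomeningeal cells Mgl2 and Clec4a2 lie right of 0 and 7 genes left of it, whereas in microglia the called genes all lie right of 0 and the open points are Cd209b, Cd209d, Cd209f and Cd209g.

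Mrc1 encodes the mannose receptor, an endocytic receptor for mannose, fucose and sulphated sugars. It spans chromosome 2 from 14229392 to 14332057 on the plus strand (mm10), with the microRNA gene Mir511 inside it. Mrc1 had 348, 483 and 565 CPM (lowest, median and highest of 8 libraries) in donor leptomeningeal cells, against 1313, 1630.4, 1017 and 1370.3 CPM in the 4 libraries of host leptomeningeal cells. All donor libraries were lower than all host libraries (log2 fold change -1.26 ± 0.11 SE, adjusted p = 5.19e-13). In the parenchyma the direction was the opposite. Mrc1 had 173, 215 and 277 CPM in donor microglia, against 13.6, 19.9 and 23.4 CPM in host microglia. The groups did not overlap, and donor microglia were higher by 3.66 ± 0.12 (adjusted p = 6.61e-29). The populations ranked host leptomeningeal, donor leptomeningeal, donor microglia and host microglia, and each neighbour in that order differed from the next.

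The 300 bases around the Mrc1 start (RefSeq, GRCm38.p6, chr2:14229164-14229463, plus strand) are shown because Mrc1 alone among the 8 genes with a promoter in the RefSeq table held a match to any of the 3 motifs searched. Capitals mark the PU.1 core GAGGAAG, here on the opposite strand.

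Mrc1: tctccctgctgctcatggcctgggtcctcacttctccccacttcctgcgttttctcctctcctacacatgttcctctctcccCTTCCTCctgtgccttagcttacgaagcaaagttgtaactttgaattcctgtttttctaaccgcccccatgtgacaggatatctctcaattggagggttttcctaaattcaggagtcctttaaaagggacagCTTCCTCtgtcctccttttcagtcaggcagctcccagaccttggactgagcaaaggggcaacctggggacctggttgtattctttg

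The 2 matches lie at bases -168 to -162 and -36 to -30 from the RefSeq start. Searched on both strands, the core is held by 13.6% of 32851 promoters of the same length, the MAF half-site TGCTGAC by 4.67% and a STAT6 site (TTC and GAA with 4 bases between them) by 6.95%. PU.1 is the main transcription factor of the macrophage lineage, MAF is known in tissue macrophages and STAT6 acts below the interleukin-4 receptor. A match is a description of the letters in this window and not a bound site.

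Mgl2 and Clec10a encode the macrophage galactose-type lectins (CD301), endocytic receptors for galactose and N-acetylgalactosamine. They are neighbours on the plus strand of chromosome 11, at 70130329 to 70137550 and 70156197 to 70170834, with starts 25.9 kb apart. Mgl2 had 612, 719 and 807 CPM in donor leptomeningeal cells, against 330.3, 394, 246 and 323 CPM in host leptomeningeal cells. All donor libraries were higher (1.37 ± 0.13, adjusted p = 1.44e-11). Clec10a had 158, 225 and 254 CPM in donor leptomeningeal cells, against 492, 443, 324 and 396 CPM in host leptomeningeal cells. Here all donor libraries were lower (-0.71 ± 0.15, adjusted p = 0.000727), so these neighbouring genes differed in opposite directions between the same cells. Per library, Mgl2 had 2.67 to 4.64 UMIs for each Clec10a UMI in donor leptomeningeal cells and 0.671 to 0.888 in host leptomeningeal cells.

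In the parenchyma both galactose lectins were higher in donor cells. Mgl2 had 32.8, 63.4 and 84.4 CPM in donor microglia, against 4.48, 10.6 and 22.6 CPM in host microglia. The groups did not overlap (2.57 ± 0.16, adjusted p = 8e-18). Clec10a had 0, 17.5 and 38.7 CPM in donor microglia, against 1.45, 3.27 and 8.54 CPM in host microglia. These ranges overlapped through 2 control donor libraries with 0 and 3 UMIs, and the difference was 2.14 ± 0.37 (adjusted p = 1.2e-05). The last 1000 bases of their transcripts share sequence: 14.4% of the 50-base words of Mgl2 and 13.9% of those of Clec10a occur in other genes, mostly in each other. How reads shared in this way were counted is not known here, so part of either level is uncertain. A share of words is not a share of reads, and the size of that part was not measured.

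Clec4n encodes Dectin-2, a receptor for fungal mannans that signals through the Fc receptor gamma chain, Syk and Card9. Clec4a2 encodes DCIR, a receptor with an inhibitory motif that recruits phosphatases. They lie 123.4 kb apart, start to start, on chromosome 6, Clec4a2 at 123106428 to 123143999 and Clec4n at 123229843 to 123247021, both on the plus strand. Clec4n had 37.5, 50.3 and 67.2 CPM in donor leptomeningeal cells, against 129.5, 144, 116 and 115 CPM in host leptomeningeal cells. Donor libraries were all lower (-1.07 ± 0.15, adjusted p = 3.96e-07). In microglia, Clec4n had 19.9, 34.9 and 64.7 CPM in donor cells, against 0, 0.847 and 2.07 CPM in host cells, where the 8 libraries held 15 UMIs in all. The groups were far apart (5.41 ± 0.30, adjusted p = 4.22e-19), the highest fold of the 10 genes in that comparison, and the pooled ratio was 37.9 with a 95% counting interval of 22.4 to 69.0. Donor leptomeningeal cells and donor microglia overlapped in Clec4n, although their means differed by 0.80 ± 0.16 (adjusted p = 4.92e-05).

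Clec4a2, the inhibitory receptor, varied least between populations. It had 197, 233 and 265 CPM in donor leptomeningeal cells, against 196, 226, 166 and 151 CPM in host leptomeningeal cells. The ranges overlapped, with donor cells higher by 0.59 ± 0.12 (adjusted p = 0.000122). Clec4a2 had 33.8, 49.7 and 60.7 CPM in donor microglia, against 12.2, 30.5 and 37.8 CPM in host microglia. Overlap was limited to the lowest donor library, mutant library 3, and the difference was 0.93 ± 0.14 (adjusted p = 1.13e-07). Of the 50-base words at its 3′ end, 7.54% occur in other genes.

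The Cd209 genes encode relatives of the human dendritic cell receptor DC-SIGN, which bind mannose-rich and fucose-bearing sugars, and Cd209b (SIGN-R1) is known on marginal zone macrophages of the mouse spleen, where it takes up bacterial polysaccharides. The 5 genes lie on chromosome 8 of mm10: Cd209a at 3743397 to 3748984, Cd209d at 3871824 to 3878555, Cd209b at 3917655 to 3926844 and Cd209f at 4102787 to 4105835 on the minus strand, and Cd209g at 4134098 to 4137707 on the plus strand. Cd209a had 125, 180 and 264 CPM in donor leptomeningeal cells, against 127, 214, 177 and 207 CPM in host leptomeningeal cells. The groups overlapped fully (0.25 ± 0.14, adjusted p = 0.173), and without mutant host leptomeningeal library 2 the value was 0.45 with an adjusted p of 0.0319. Cd209a had 8.20, 27.7 and 33.5 CPM in donor microglia, against 2.76, 6.27 and 11.8 CPM in host microglia. Donor cells were higher by 1.95 ± 0.25 (adjusted p = 9.33e-09), with control donor libraries 1 and 3 inside the host range.

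The other 4 were lower in donor than in host leptomeningeal cells. Cd209b had 5.29, 8.02 and 12.8 CPM in donor leptomeningeal cells, against 125, 176, 153 and 219 CPM in host leptomeningeal cells. No other gene of the 10 differed as much there (-4.03 ± 0.18, adjusted p = 1.6e-21). Cd209f had 45.2, 66.2 and 108 CPM in donor leptomeningeal cells, against 594, 912, 823 and 819 CPM in host leptomeningeal cells, and the groups were wide apart (-3.21 ± 0.22, adjusted p = 1.71e-10). Cd209g had 24.5, 38.4 and 53.0 CPM in donor leptomeningeal cells, against 300.2, 388, 279.7 and 342 CPM in host leptomeningeal cells, again without overlap (-2.88 ± 0.18, adjusted p = 3.58e-13). Cd209d had 6.85, 11.3 and 21.3 CPM in donor leptomeningeal cells, against 15.1, 37.3, 34.1 and 28.5 CPM in host leptomeningeal cells. Its ranges overlapped (-0.98 ± 0.26, adjusted p = 0.00299), and the call rested on mutant host library 2, without which the value was -0.58 (adjusted p = 0.233). Cd209c, which lies between Cd209b and Cd209f and is not among the 10, had 17.1 ± 5.22 CPM in donor (SD, n = 8) and 23.7 ± 8.29 CPM in host leptomeningeal cells (n = 4) and was not called (-0.24 ± 0.26, adjusted p = 0.534).

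**Figure D4:**
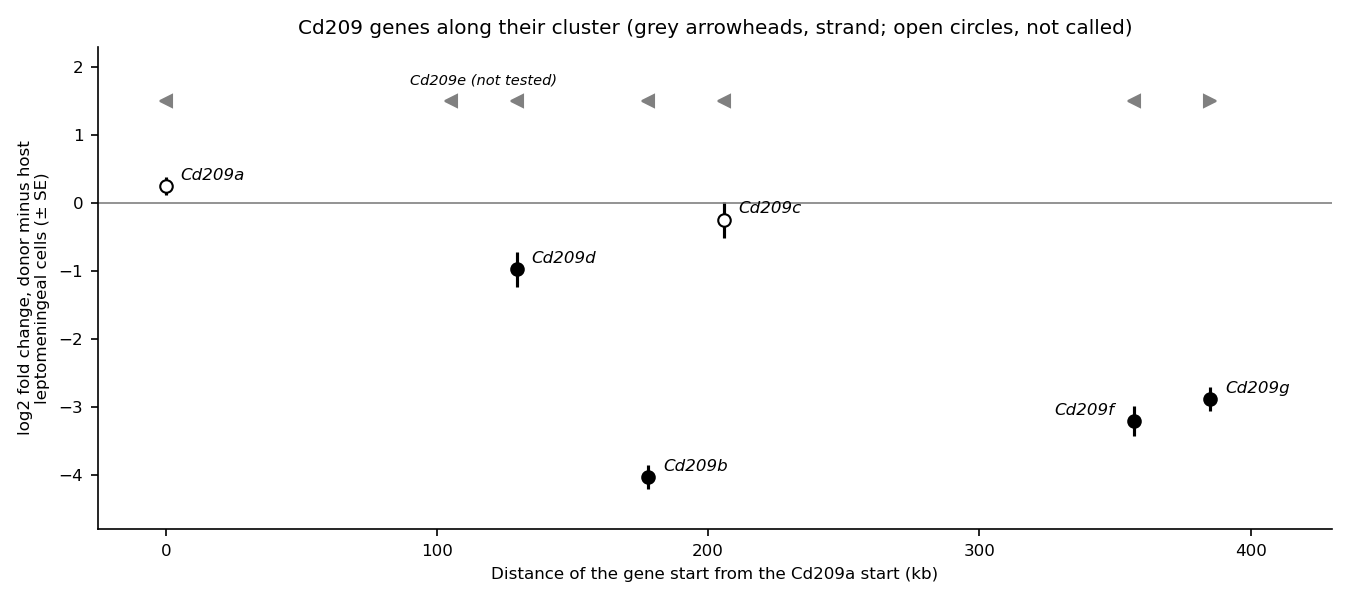
Points show the log2 fold change of donor minus host leptomeningeal cells (vertical axis, bars ± SE) for the Cd209 genes by the distance of their starts from that of Cd209a (horizontal axis, kb); filled points had an adjusted p under 0.05. Cd209a at one end and Cd209c inside the cluster are open and lie near 0, whereas Cd209b, Cd209f and Cd209g lie between -4.03 and -2.88.

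In microglia, Cd209b, Cd209d, Cd209f and Cd209g were close to the counting limit. Cd209b had 3 UMIs over the 8 donor libraries and 4 over the 8 host libraries, and Cd209d had 2 and 5. Cd209f had 25 UMIs in donor microglia, of which 15 were in mutant library 3 and 7 in control library 2, against 24 in host microglia. Cd209g had 9 UMIs in donor microglia, 5 and 3 of them in the same pair of libraries, against 5 in host microglia. That pair also held most UMIs of the border macrophage genes Cd163 and Lyve1 in donor microglia: 18 and 24 in mutant library 3 and 21 and 11 in control library 2, while the other 6 libraries held 0 to 7 and 0 to 8. As a list, the 22 border macrophage genes besides lectins did not set this pair apart. They took 0.394% of UMIs in mutant library 3 and 0.372% in control library 2, against 0.363% to 0.503% in the other 6 libraries. Stab1 alone held 31.4% of the UMIs of that list in donor microglia. The sum therefore cannot decide whether this pair held more border macrophages. The part of border macrophages in the Cd209 values was not tested. By edgeR, none of the 4 genes was called between donor and host microglia (Cd209g 2.22 ± 1.02, adjusted p = 0.0621, and Cd209f 1.64 ± 0.84, adjusted p = 0.0999). DESeq2's Wald test called Cd209f and Cd209g. Over 22 alternatives, that test included, Cd209g was called in 4 and Cd209f in 1. Without mutant library 3 and control library 2, the Cd209f and Cd209g values were -0.76 and -0.80 (adjusted p = 0.613 and 0.689). Host leptomeningeal cells held 705 times the Cd209b level of host microglia, from 769 against 4 UMIs, with a 95% counting interval of 274 to 2593. Donor leptomeningeal cells held 16.7 times that of donor microglia, from 164 against 3 UMIs (5.62 to 81.9).

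Cd209f exceeded Cd209g in every leptomeningeal library. Per library, Cd209f had 1.41 to 2.37 UMIs for each Cd209g UMI in donor leptomeningeal cells and 1.98 to 2.94 in host leptomeningeal cells. Their promoters (RefSeq, GRCm38.p6) are printed because they are 81.2% identical over 320 aligned columns, whereas the other pairs of the 5 Cd209 promoters were 45.7% to 58.8% identical. Capitals mark bases that differ or face a gap. Cd209f is chr8:4105715-4106014 on the minus strand and Cd209g is chr8:4134486-4134785 on the plus strand. The Cd209g window lies inside the gene span given above, downstream of the start of that span.
Cd209f: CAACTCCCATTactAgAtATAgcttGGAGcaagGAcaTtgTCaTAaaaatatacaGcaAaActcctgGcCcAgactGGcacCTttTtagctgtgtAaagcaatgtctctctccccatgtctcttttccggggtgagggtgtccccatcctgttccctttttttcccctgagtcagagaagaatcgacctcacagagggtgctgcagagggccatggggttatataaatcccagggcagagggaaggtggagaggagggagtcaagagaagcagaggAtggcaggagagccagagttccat
Cd209g: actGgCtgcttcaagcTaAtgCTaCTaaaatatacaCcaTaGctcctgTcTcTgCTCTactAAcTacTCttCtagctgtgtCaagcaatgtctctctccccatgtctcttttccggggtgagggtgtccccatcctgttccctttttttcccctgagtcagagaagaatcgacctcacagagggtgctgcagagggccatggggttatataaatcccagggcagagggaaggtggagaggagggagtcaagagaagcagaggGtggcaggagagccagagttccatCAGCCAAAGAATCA

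Apart from 14 bases at the downstream end of Cd209g that lie past the last base of Cd209f, differences and gaps gather in the upstream end: after the first 120 aligned columns, 1 of the 186 columns up to the end of Cd209f differed. The counted ends of the transcripts share words with the other gene. Of the 50-base words in the last 1000 bases of Cd209f, 31.0% occur somewhere in Cd209g transcripts. Of those of Cd209g, 22.6% occur somewhere in Cd209f transcripts. Whether these matches lie in the end of the other gene was not measured. Reads from such words could be split between these genes, so the ratio of Cd209f to Cd209g is uncertain, while Mrc1, Cd209a, Cd209b and Cd209d shared none of theirs with any gene.

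Whether origin mattered differently by compartment was tested as an interaction, the donor minus host difference in leptomeningeal cells minus that in microglia. It was negative for 8 of 10 genes and positive for 0, where 23.2% of all genes were lower and 19.1% higher (42.2% in either direction), and DESeq2's Wald test called 9, all negative (43.5% of all genes). Cd209b and Cd209g entered this test too through leptomeningeal libraries, and the count is a description. Clec4n had -6.48 ± 0.34 (adjusted p = 4.04e-19), Mrc1 -4.92 ± 0.16 (adjusted p = 2.99e-28), Clec10a -2.85 ± 0.40, Cd209a -1.70 ± 0.28 and Mgl2 -1.20 ± 0.20. Clec4a2 (-0.35 ± 0.18, adjusted p = 0.122) and Cd209d (-0.57 ± 2.07, adjusted p = 0.874) were not called by edgeR. Clec4a2 was called in 3 of 35 alternatives: by DESeq2's Wald test (-0.43, adjusted p = 0.0457), without mutant donor microglia library 3 (-0.43, adjusted p = 0.0488) and without that library and control library 2 (-0.45, adjusted p = 0.0413). The values of Cd209b (-5.15 ± 1.61), Cd209f (-4.85 ± 1.06) and Cd209g (-5.10 ± 1.26) rested on few microglial UMIs, and without control donor microglia library 2 they were -3.80, -3.66 and -3.03, none of them called (adjusted p = 1.00, 0.244 and 1.00). Without mutant donor microglia library 3 they were -3.60, -3.62 and -4.17 and again not called (adjusted p = 1.00, 0.0601 and 0.0622).

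Markers of other cells moved with both origin comparisons, and their part in the lectin differences was not tested. In donor against host leptomeningeal cells, the share of UMIs of 12 monocyte genes was 0.321% to 0.716% against 0.0447% to 0.0708%, that of 16 microglial genes 1.27% to 1.82% against 2.99% to 4.95%, and that of 13 dendritic cell genes 0.0280% to 0.0410% against 0.0371% to 0.0435%. Gene by gene, 7 of 12 dendritic cell genes tested were higher and 1 lower in donor cells (median log2 fold change 0.78), and Fscn1 alone held 48.4% of the UMIs of that list in host leptomeningeal cells. Ccr2, a receptor of recruited monocytes, had 431 ± 32.9 CPM in donor (SD, n = 8) and 121 ± 21.9 CPM in host leptomeningeal cells (n = 4). In donor against host microglia, the monocyte share was 0.0240% to 0.0867% against 0.00269% to 0.00818%, that of 13 astrocyte, neuron and oligodendrocyte genes 0.150% to 0.801% against 0.0214% to 0.0262%, and that of 10 meningeal fibroblast genes 0.0551% to 0.103% against 0.00233% to 0.00324%. Over the libraries of each donor population, all monocyte, microglial, dendritic cell and astrocyte, neuron and oligodendrocyte genes listed had UMIs, and the fibroblast list was led by Ptgds, with 67.9% of its UMIs in donor and 92.7% in host microglia.

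The genotype comparisons asked what marrow with the recombined allele changed. In host microglia, which are not mutant themselves, Mgl2 had 10.4, 16.0, 18.4 and 22.6 CPM under mutant marrow, against 6.79, 8.45, 10.8 and 4.48 CPM under control marrow. The ranges met, with the lowest mutant library just below the highest control library. The highest value was that of mutant library 4, which had 1907.5 CPM of P2ry12, against 3474 to 4360 CPM in the other mutant libraries. That library also had the highest neutrophil share of the host microglia libraries, 0.154%. Mgl2 was higher by 1.17 ± 0.24 (adjusted p = 0.0377) and was the 1 gene of 10 called, against 0.0649% of all genes (0.0568% higher and 0.00811% lower). The call was lost when the 2 groups were fitted alone (1.16, adjusted p = 0.598) and without any 1 of 6 of the 8 libraries (0.92 to 1.23, adjusted p = 0.0984 to 0.475). Beside it, 14 T and NK cell genes took 0.00571% to 0.00762% of UMIs under mutant and 0.00315% to 0.00553% under control marrow, and the neutrophil genes 0.0623% to 0.154% and 0.0593% to 0.0951%, and their part was not tested. Cd209a had 10.8, 7.01, 11.8 and 6.72 CPM under mutant marrow, against 5.82, 5.78, 4.41 and 2.76 CPM under control marrow. Its ranges did not overlap, but the gene was not called (1.02 ± 0.33, adjusted p = 1).

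In donor microglia, which carry the allele, edgeR called 0 of 10 genes, against 0.0892% of all genes (0.0568% higher and 0.0324% lower). Unadjusted p-values under 0.05 were found for 4 of the 10, against 10.2% of all genes, and DESeq2's Wald test called 3, against 0.657% of all genes. Clec10a had 17.8, 27.7, 38.7 and 18.5 CPM in mutant cells, against 6.26, 17.3, 13.1 and 0 CPM in control cells. The ranges did not overlap, yet the adjusted p was 0.226 (1.45 ± 0.45; DESeq2 1.48, adjusted p = 0.0114). Cd209a had 33.5, 33.1, 32.8 and 30.8 CPM in mutant cells, against 10.4, 24.6, 8.20 and 15.6 CPM in control cells, also without overlap (1.12 ± 0.32, adjusted p = 0.182; DESeq2 1.14, adjusted p = 0.0426). Mgl2 had 71.0, 68.3, 84.4 and 75.9 CPM in mutant cells, against 58.4, 41.9, 32.8 and 52.0 CPM in control cells, again without overlap (0.72 ± 0.21, adjusted p = 0.178; DESeq2 0.75, adjusted p = 0.0349). Mrc1 was lower in every mutant library, at 197, 173, 209 and 185 CPM, against 232, 251, 277 and 222 CPM in control cells, and was not called by edgeR (-0.35 ± 0.15, adjusted p = 0.403). How many of all genes were without overlap between these groups was not counted, so lack of overlap is a description here. Without control library 2, edgeR called Clec10a (2.04, adjusted p = 0.0273) and Cd209a (1.56, adjusted p = 0.00806), and the share of all genes called was 4.45% (544 genes, against 11 with all libraries). Clec10a, Mgl2 and Cd209a are also known in dendritic cells. The 13 dendritic cell genes, which include none of the 10, took 0.0246% to 0.0340% of UMIs in mutant and 0.0203% to 0.0229% in control donor microglia, and neutrophil genes 0.111% to 0.193% and 0.142% to 1.10%. The 13 astrocyte, neuron and oligodendrocyte genes took 0.416% to 0.801% in mutant donor microglia, against 0.780% in control library 2 and 0.150% to 0.268% in the other 3 control libraries. None of these genes was called, and 5 had an unadjusted p under 0.05 (median 0.70). The part of these 3 lists was not tested.

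**Figure D5:**
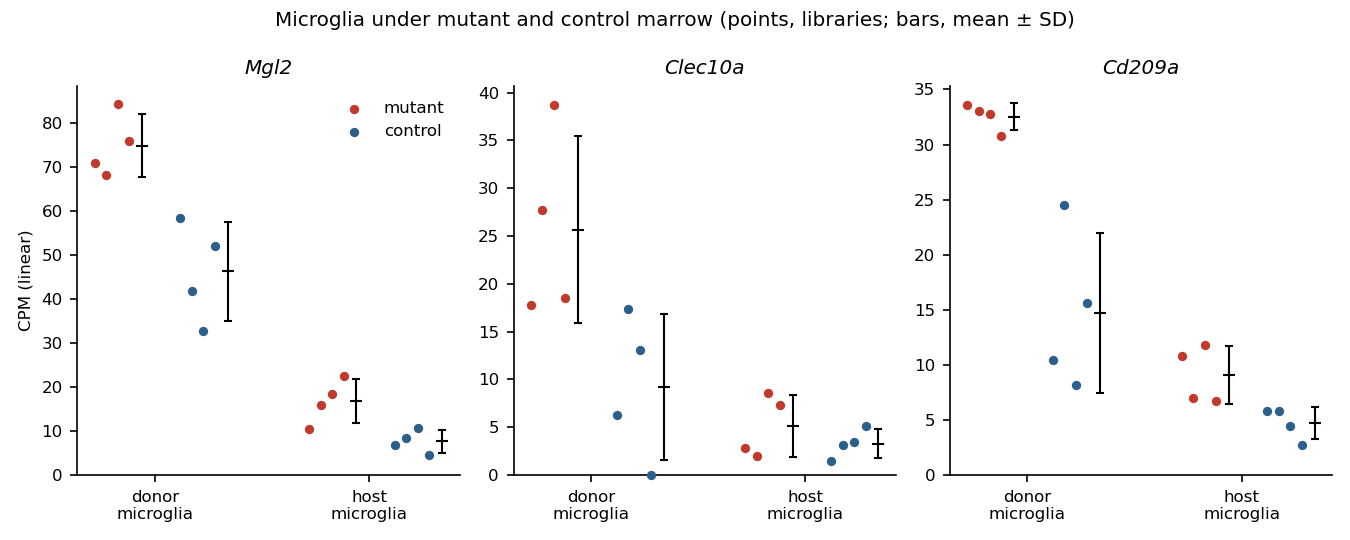
Points are libraries and bars means ± SD in CPM on a linear axis for Mgl2, Clec10a and Cd209a, in donor and host microglia, with mutant marrow in red left of control marrow in blue. In donor microglia the mutant and control points do not overlap for any of these genes. In host microglia they are apart for Cd209a, and the mean of Mgl2 is 16.9 under mutant and 7.62 under control marrow. The share of all genes that are apart in this way was not counted.

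The genotype effect on Mgl2 was not shown to differ between donor and host microglia (-0.44 ± 0.32, adjusted p = 0.899), where 0.0324% of all genes were called (0.0162% higher and 0.0162% lower). Nor was it between host leptomeningeal cells and host microglia (-0.77 ± 0.31, adjusted p = 0.94; 0% of all genes called). In donor leptomeningeal cells, edgeR and DESeq2 each called 0 of 10 genes and 1 gene had an unadjusted p under 0.05, against 0.0487% of all genes called by edgeR (0.0324% higher and 0.0162% lower), 0.0649% by DESeq2 and 4.84% with an unadjusted p under 0.05. The widest difference was that of Cd209d (0.48 ± 0.31), and Clec10a, at 234, 254, 227 and 245 CPM in mutant and 182, 158, 200.1 and 224 CPM in control cells, did not overlap between genotypes (0.35 ± 0.18). In host leptomeningeal cells, with 2 libraries per genotype, both tools again called 0 of 10, with 1 at an unadjusted p under 0.05, against 0% of all genes called by edgeR, 0.203% by DESeq2 and 5.4% with an unadjusted p under 0.05. Folds there lay between -0.24 ± 0.26 for Cd209b and 0.46 ± 0.20 for Clec4a2.

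Other C-type lectins, lectin signalling genes, interleukin-4 response genes and border macrophage genes besides lectins were read as 4 lists. Their counts stand against 16.9% of all genes higher and 13.3% lower in donor than in host leptomeningeal cells, and 33.1% higher and 27.3% lower in donor than in host microglia. Of 19 other C-type lectins tested, 8 were higher and 2 lower in donor than in host leptomeningeal cells (median log2 fold change 0.57, against 0.01 over all genes). Clec12a, an inhibitory receptor, was higher by 1.54 ± 0.13, Clec4e (Mincle), a Syk-coupled receptor for damaged cells and mycobacterial glycolipids, by 2.68 ± 0.23, and Cd72, an inhibitory receptor, by 1.34 ± 0.13, whereas the scavenger receptor Colec12 had -3.13 ± 0.25. Neutrophil and monocyte genes took larger shares of UMIs in donor than in host leptomeningeal cells, as given above. The part of such cells in these differences was not tested. Between donor and host microglia, 13 of the 19 were higher and 2 lower (median 2.28, against 0.04), among them Clec12a with 5.23 ± 0.14, Clec7a (Dectin-1), the receptor for fungal beta-glucan, with 2.08 ± 0.11, Cd72 with 1.84 ± 0.11 and Clec4a1 with 2.43 ± 0.18.

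Of the 22 genes of lectin adaptors and Syk-Card9 signalling, the origin by compartment interaction was called for 14, positive for 13 and negative for 1, where 42.2% of all genes were called. In donor against host leptomeningeal cells 8 were higher and 0 lower (median 0.14), where 30.2% of all genes were called in either direction, among them the Src-family kinase Fgr (2.77 ± 0.20), phospholipase Plcg2 (1.04 ± 0.15) and the phosphatase Ptpn6 (0.50 ± 0.10). Fgr is also known in neutrophils, whose genes took a larger share of UMIs there, as given above. The part of neutrophils in these differences was not tested. Among donor against host microglia, 3 were higher and 14 lower (median -0.53), with Lyn at -1.18 ± 0.09, Inpp5d, the inositol phosphatase SHIP1, at -1.12 ± 0.09, Plcg2 at -1.10 ± 0.13 and Vav1 at -0.64 ± 0.09.

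Of 14 genes of the interleukin-4 and STAT6 response, 4 were higher and 3 lower in donor than in host leptomeningeal cells (median 0.23). Retnla (3.89 ± 0.51) and the chemokine Ccl17 (2.83 ± 0.49) were higher, and the chemokine Ccl24 (-1.75 ± 0.14) and the receptor chain Il4ra (-0.47 ± 0.11) were lower. For donor against host microglia, 7 were higher and 3 lower (median 0.72), with Klf4 at 1.21 ± 0.12, Il4ra at 0.29 ± 0.10, Tgm2 at -0.95 ± 0.12 and Stat6 at -0.37 ± 0.10. Of 22 border macrophage genes besides lectins, 0 were higher and 19 lower in donor than in host leptomeningeal cells (median -1.04), with the phosphatidylserine receptor Timd4 at -5.14 ± 0.29, Ednrb at -2.46 ± 0.22, the scavenger receptor Stab1 at -1.18 ± 0.11 and the transcription factor Maf at -1.11 ± 0.11. In donor against host microglia 16 of the 22 were higher and 3 lower (median 2.46), with Ms4a7 at 5.43 ± 0.15, the ferroxidase Cp at 4.34 ± 0.16, the chemokine Pf4 at 3.94 ± 0.15 and the endocytic adaptor Dab2 at 3.15 ± 0.12.

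Likeness of the lectins' profiles over the 8 groups was measured as the root mean square difference between profiles of mean log2 CPM, each centred on its own mean, over 8458 other genes with a mean of at least 10 CPM, and the 9 lectins that reached this level were compared. Among the lectins themselves, Cd209f and Cd209g were closest (0.279), then Mrc1 and Clec4n (0.309), then Mgl2 and Cd209a (0.547). Lyve1, a hyaluronan receptor of border macrophages, and Cd163, the haemoglobin scavenger receptor, were closest to Cd209g (0.431 and 0.475) and to Cd209f (0.496 and 0.693), followed by C4b for Cd209g and Fcna for Cd209f, and Cd163 was also closest to Cd209b (0.665), before C4b and Cd4. Lyve1 had 170.3 ± 50.4 CPM in donor leptomeningeal (SD, n = 8), 760.0 ± 208 CPM in host leptomeningeal (n = 4), 7.21 ± 9.30 CPM in donor microglia and 2.79 ± 1.76 CPM in host microglia (n = 8 each).

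Dab2 (0.394), the lipid transfer protein Pltp (0.412) and Cd38 (0.414) were closest to Mrc1, and Sorbs3 (0.389), Cp (0.43) and Dab2 (0.466) to Clec4n. Mgl2 was closest to Crip1 (0.211), Emilin2 (0.322) and the integrin chain Itgb7 (0.362), and Cd209a to Ahnak (0.331), Ifitm3 (0.367) and Fosb (0.403). Clec10a was closest to the chemokines Ccl8 (0.582) and Ccl7 (0.598) and to Pla2g2d (0.614), and Clec4a2 to Tubb6 (0.187), Samd9l (0.217) and Tnfrsf18 (0.226). These values describe shared profiles over 8 groups that differ in depth and cell make-up.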

How the data were processed

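Per the file headers, the deposited table has 3 columns per library: raw, normalized and rlog. The raw columns are UMI counts by gene symbol that the authors deposited; the build is mm10 per the submitters' processing notes, while the aligner and the handling of reads shared by similar genes are not given in the sources used here. Of the rest, the authors' normalized signal is a count over a library's size factor and the deposited rlog values are on a log2 scale, and neither was used. CPM was computed from the counts over each library's total. The 10 genes and the gene lists were chosen with earlier results of these data known.

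Genes passing filterByExpr with the 8 groups (12327) were fitted with edgeR 4.0.16 (R 4.3.3) by the robust quasi-likelihood test with TMM scaling, 1 mean per group over all 28 libraries and Benjamini-Hochberg adjustment at 0.05; the same steps were tested on simulated data. Libraries were grouped by their labels. Contrasts were averaged over genotypes except mutant minus control. Alternatives were DESeq2 1.42.0 (size factors in the edgeR test, and its Wald test), no low-count filter, only the groups of a contrast, replicate numbers as a block and leaving out each library. Chosen after seeing the data was leaving out donor microglia libraries as a pair: control 2 with mutant 3, which held most Cd209f and Cd209g UMIs, and control 1 with mutant 4, which stood apart on principal components. Counting intervals are exact at 95%.

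Named genes were the 10 members, up to 4 genes per other list and comparison with the smallest adjusted p among those past 0.05 with a mean of at least 10 CPM, the 3 closest profiles per member, and Dnmt3a. Any other marker gene was chosen after its values were seen. Overlap of libraries between genotypes was checked for the 10 members only, with no share over all genes. Positions came from GENCODE M21 (14370 of 14617 symbols matched) and promoters from RefSeq GRCm38.p6 (8 of 10 members). For Cd209g and Clec4a2 the RefSeq window lay inside the GENCODE span, past its start, so the sources place these starts differently. No 2 libraries of a group agreed within sampling noise (smallest chi-square per degree of freedom 1.97).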

Additional observations from a re-analysis of the deposited data

Results flagged for a closer look

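Within single groups of 4 libraries, 45 gene and group combinations were checked for a library far from the others, and 2 stood out, where chance alone gives about 1 in 20. Cd209f had 14.9 CPM in mutant donor microglia library 3, against 0 to 1.07 CPM in the other 3 libraries. Clec4a2 had 12.2 CPM in mutant host microglia library 4, against 28.9 to 30.9 CPM in the other 3 libraries.

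The donor minus host difference itself differed between leptomeningeal cells and microglia for 8 genes, by edgeR's test of the interaction. The log2 values were -6.48 for Clec4n, -4.92 for Mrc1, -2.85 for Clec10a, -1.70 for Cd209a and -1.20 for Mgl2. They were -5.15 for Cd209b, -5.10 for Cd209g and -4.85 for Cd209f, which rest on few UMIs in microglia.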

How the results depend on the processing

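Of 64 gene and comparison pairs called, 59 kept the call under every alternative run; over 2432 combinations of gene, comparison and alternative 17 calls were lost and 15 gained, and 69 signs changed, 0 of them called in either fit. The count of genes with an interaction was 8 by edgeR (42.2% of all genes), 9 by DESeq2's Wald test (43.5% of all genes), and 5 to 8 with 1 library left out. In mutant against control donor microglia it was 0 by edgeR, 3 by DESeq2's Wald test (0.657% of all genes) and 0 to 2 with 1 library left out. Without control library 2 and mutant library 3 it was 1. Calls over all genes moved as well, from 11 with all libraries to 544 (4.45%) without control library 2. Shares of all genes for that pair and for the other left-out libraries are not given here, so those member counts have no background beside them. In host microglia the member count was 1, 0 when fitted alone and 0 to 1 with 1 library left out. Without control donor microglia library 2 and mutant library 3, Cd209f and Cd209g reversed between donor and host microglia, at -0.76 and -0.80; the cause was not tested. Replicate numbers did not pair the libraries: deviations of 86 same-number pairs had a median correlation of 0.00711 (-0.182 to 0.125), and 5 of 28 libraries correlated best with their own number. With the replicate block, mutant against control donor microglia had 0 member calls and 13 calls over all genes, and no member call changed. Depth limits Cd209b, Cd209d, Cd209f and Cd209g in microglia, and 2 libraries per genotype limit host leptomeningeal cells.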
